A study of Mus musculus with 6 samples.

Results

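The constitutive proteasome subunits are the proteins that build the standard proteasome of every cell, and 40 of their genes were measured here among 19938 genes in all. Members were taken by symbol: a gene counted when its name was Psma, Psmb, Psmc, Psmd or Psme and a number, with the interferon-inducible Psmb8, Psmb9 and Psmb10 left out. The 40 fall into 16 genes of the 20S core (Psma and Psmb), 17 of the 19S cap (Psmc, and Psmd without the chaperones), 3 chaperones of cap assembly (Psmd5, Psmd9 and Psmd10) and 4 activators (Psme). KO stands for bone marrow stromal cells from miR-188 knockout mice and WT for the same cells from wild type mice, with 3 arrays of each. All mice were 6 months old on the C57BL/6 background, and every culture, KO and WT, was in adipogenic medium with 1 µM dexamethasone, insulin at 5 µg/ml, 0.5 mM 3-isobutyl-1-methylxanthine and serum at 10%. The series asks how miR-188 bears on whether marrow stromal cells become bone or fat cells. The replicates are labelled biological, and whether every culture had a separate mouse is not said, so the spread that p-values rest on is that between cultures. How far the deletion reaches, and in which cells it was made, is not stated in the labels.

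The proteasome degrades proteins that carry ubiquitin chains. Its 20S core is a barrel of alpha and beta rings. The alpha rings gate the entrance, and the inner beta rings hold the threonine protease sites. The 19S cap sits on the barrel ends. Its ATPase ring unfolds substrates and threads them inward, and its lid removes the ubiquitin. Subunits are needed in fixed ratios in each particle, and the transcription factor NRF1 is known to raise their genes together when proteasome activity falls short. In adipocyte precursors, protein breakdown by the proteasome is known to control the amounts of the regulators of differentiation.

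The microRNA that separates the genotypes is shown for reference, with the seed (bases 2 to 8) in capitals, from RefSeq (GRCm38.p6, minus strand of chromosome X). Its arms lie at chrX:7248031-7248051 and chrX:7247992-7248012. The deleted gene's own probe set, Mir188, read 7.22, 7.22 and 7.13 in KO and 7.22, 7.27 and 7.38 in WT. These overlap, and the difference of -0.10 did not pass (limma adjusted p = 0.348), so this probe set does not check the genotype labels; what this probe set reads of the precursor was not examined. No member is tied to these sequences here, since no transcript ends were searched for seed matches.
mmu-miR-188-5p: cAUCCCUUgcaugguggaggg
mmu-miR-188-3p: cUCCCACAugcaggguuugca

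The label matched the levels. Of the 40 members, 38 lay above a background level of 6.83 on the log2 scale, the 95th percentile over 1027 olfactory receptor genes by mean level. The exceptions were Psma8, the testis form of an alpha subunit, at 5.92 ± 0.11 in KO and 5.87 ± 0.14 in WT, and Psmb11, the thymus form of a catalytic beta subunit, at 6.26 ± 0.02 in KO and 6.21 ± 0.07 in WT (SD, n = 3 arrays each). Both tissue-restricted forms were thus dim in these marrow cultures, while every standard subunit was above background.

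Differences between genotypes were small. In the fit over all genes (limma, Benjamini-Hochberg adjusted p under 0.05), 4 members fell in KO, 2 rose and 34 did not pass, so 15% of the members were called, against 7.31% of all genes. The lower calls were Psmd3, Psmb1, Psme4 and Psmd13, and the higher ones Psmd7 and Psma6. Lower calls made up 3.97% of all genes and higher calls 3.34%. The members are bright genes, and brighter genes were called more often: among the 2112 genes with a mean level between 9.70 and 10.88, the interquartile range of the members above background, 19.4% were called. Over the whole level range of the 38 members above background, which holds 6741 genes, 15.7% were called, beside 15.8% of those 38 members. An unadjusted p under 0.05 was found in 13 of the 40 members (32.5%), in 20.7% of all genes, in 39.5% of the 6741 genes and in 44% of the 2112 genes. The largest difference was 1.27-fold (Psmd3), and the median size of the 40 differences was 0.0623 on the log2 scale, against 0.0585 over all genes. For the 38 members above background it was 0.0691, less than the 0.0790 over the 6741 genes and the 0.0843 over the 2112 genes.

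Direction leaned to lower in KO. In the deposited scaling 32 of the 40 members had a lower mean in KO than in WT, with a median difference of -0.06, against a median of 0.00465 over all genes and -0.03 over the 2112 genes between 9.70 and 10.88, of which 62.6% were lower in KO. In 13 members the 3 KO values all lay below the 3 WT values and in 3 members all above. Over all genes the groups did not overlap in 24.9%, with KO below in 13.5% and above in 11.4%. KO lay below in 34.2% of the 38 members above background, beside 28.7% of the 6741 genes in their level range and 33.9% of the 2112 genes in its middle.

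**Figure D1:**
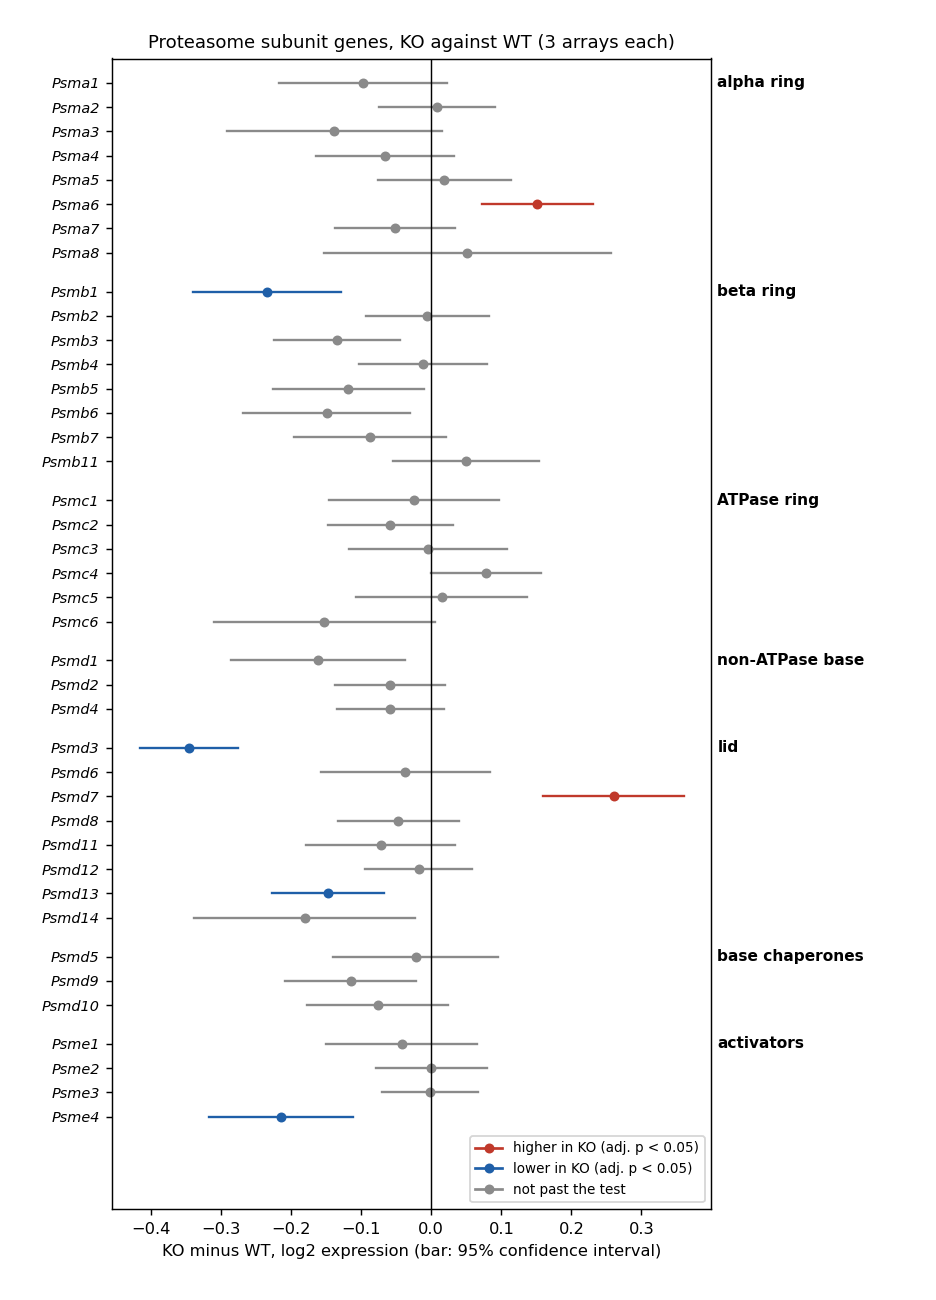
KO minus WT on the log2 scale (x axis) for the 40 proteasome members (y axis), grouped by place in the particle; points are differences of the means of 3 arrays, bars are 95% confidence intervals from limma, and colour marks the test. Most points lie left of 0, and 4 lower and 2 higher members passed the test, with the lid genes Psmd3 and Psmd7 at the ends of the range (-0.35 and 0.26).

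Of the alpha ring genes, which form the gate of the core, 1 of 8 passed (12.5%, against 7.31% of all genes). Psma6 was at 11.09, 11.14 and 11.15 in the KO arrays, against 10.97, 10.99 and 10.96 in the WT arrays. The KO values all lay above the WT values, and Psma6 rose by 0.15 (SE 0.03, limma adjusted p = 0.0435). No fit on 5 arrays kept the call: its adjusted p ran between 0.0522 without KO replicate 1 and 0.174 without WT replicate 3. The other standard alpha genes differed by between -0.14 (Psma3) and 0.02 (Psma5). The sign for Psma5 turned with the probe set, since a second one differed by -0.23 and the mean of both by -0.10. Psma7 had nearly equal KO values of 9.63 in each array, all below the WT values of 9.74, 9.65 and 9.65, and its difference of -0.05 did not pass (adjusted p = 0.498).

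The beta ring genes had a median of -0.10, with 7 of 8 lower in KO (87.5%), and 1 of 8 passed (12.5%). Of all genes, 47.6% were lower and 7.31% were called. Of the 2112 genes between 9.70 and 10.88, 62.6% were lower and 19.4% were called. The ring was brighter than that range, at a median level of 11.50. Its median difference was -0.0633 after quantile normalization again and -0.0652 after cyclic loess, with 5 of 8 lower under each. Psmb1, a structural beta subunit without a protease site, was at 11.12, 11.24 and 11.19 in KO, against 11.45, 11.36 and 11.43 in WT. The groups did not overlap, and Psmb1 fell by 0.23 (SE 0.04, limma adjusted p = 0.0267). This call held without KO replicate 2 or WT replicate 2 and was lost without any other array (adjusted p = 0.0663 without KO replicate 1 to 0.126 without WT replicate 3). The catalytic genes did not pass. Psmb5, which carries the chymotrypsin-like site, was at 11.81, 11.71 and 11.81 in KO and at 11.89, 11.95 and 11.84 in WT. Psmb6, with the caspase-like site, was at 10.28, 10.22 and 10.38 in KO and at 10.40, 10.47 and 10.45 in WT. In both genes KO lay below WT on every array. Psmb5 differed by -0.12 (95% confidence interval -0.23 to -0.01, adjusted p = 0.201) and Psmb6 by -0.15 (interval -0.27 to -0.03, adjusted p = 0.142). Psmb7, with the trypsin-like site, overlapped between the groups and differed by -0.09 (interval -0.20 to 0.02, adjusted p = 0.355). The structural Psmb3 was at 12.64, 12.54 and 12.59 in KO, against 12.73, 12.75 and 12.69 in WT. It did not overlap and differed by -0.13 (adjusted p = 0.0886); it passed with dim genes left out (adjusted p = 0.0432), with an intensity trend (0.0195) and with array weights (0.0443), and over all alternatives the value ran between 0.0195 and 0.349. Psmb2 and Psmb4, both structural, differed by -0.01 each (adjusted p = 0.957 and 0.909).

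In the 19S cap the ATPase ring had no call. None of its 6 genes passed by limma, 1 of them (Psmc4) had an unadjusted p under 0.05, and the median difference was -0.01, which turned to 0.00111 after quantile normalization again and 0.0137 after cyclic loess. Psmc4, whose groups did not overlap, was at 9.58, 9.53 and 9.60 in KO against 9.49 on each WT array, a difference of 0.08 (adjusted p = 0.240). Psmc6 had the widest spread of the ring, at 10.36, 10.55 and 10.49 in KO and 10.68, 10.52 and 10.66 in WT, and overlapped between the groups at a difference of -0.15 (adjusted p = 0.258). Psmc1, Psmc2, Psmc3 and Psmc5 differed by between -0.06 and 0.01. The 3 other base genes did not pass either. KO lay below WT on every array for each, as in 13.5% of all genes and 28.7% of the 6741 genes in the members' level range. Psmd1, one of the large scaffolds of the base, was at 10.49, 10.57 and 10.69 in KO and at 10.74, 10.75 and 10.74 in WT, a difference of -0.16 (interval -0.29 to -0.04, adjusted p = 0.130). Psmd2, the other scaffold, and Psmd4, a ubiquitin receptor, differed by -0.06 each (adjusted p = 0.389 and 0.381).

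The lid held the largest differences among the members, in opposite directions. Psmd3, a scaffold subunit of the lid, was at 9.90, 9.93 and 9.91 in KO, against 10.26, 10.25 and 10.26 in WT. The groups did not overlap and were tight, with means of 9.91 ± 0.01 in KO and 10.26 ± 0.01 in WT (SD, n = 3 arrays each). Psmd3 fell by 0.35 (SE 0.03, limma adjusted p = 0.00305). It was the 1 member that passed in all 6 fits with an array left out (adjusted p = 0.0159 to 0.0347). Psmd7, which pairs with the deubiquitinase of the lid, was at 10.35, 10.42 and 10.28 in KO, against 10.11, 10.07 and 10.08 in WT. The KO values all lay above the WT values, and Psmd7 rose by 0.26 (SE 0.04, adjusted p = 0.0165). Its call held without KO replicate 2 or 3 and was lost without the others (adjusted p = 0.0556 without WT replicate 2 to 0.0910 without WT replicate 3).

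The deubiquitinase itself, Psmd14, was at 10.67, 10.86 and 10.85 in KO and at 11.06, 10.89 and 10.98 in WT. KO lay below WT, by little in replicate 2 of each, and the difference of -0.18 did not pass (interval -0.34 to -0.02, adjusted p = 0.179). Its partner Psmd7 had the opposite sign. Psmd13, another structural lid subunit, was at 9.76, 9.71 and 9.70 in KO, against 9.88, 9.85 and 9.89 in WT. The groups did not overlap, and Psmd13 fell by 0.15 (SE 0.03, adjusted p = 0.0485). That call was lost when any 1 array was left out (adjusted p = 0.0557 without KO replicate 1 to 0.187 without WT replicate 3), and after quantile normalization again or cyclic loess (0.0818 and 0.0945). Psmd6, Psmd8, Psmd11 and Psmd12, the rest of the lid members, differed by between -0.07 and -0.02 and overlapped between the groups.

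**Figure D2:**
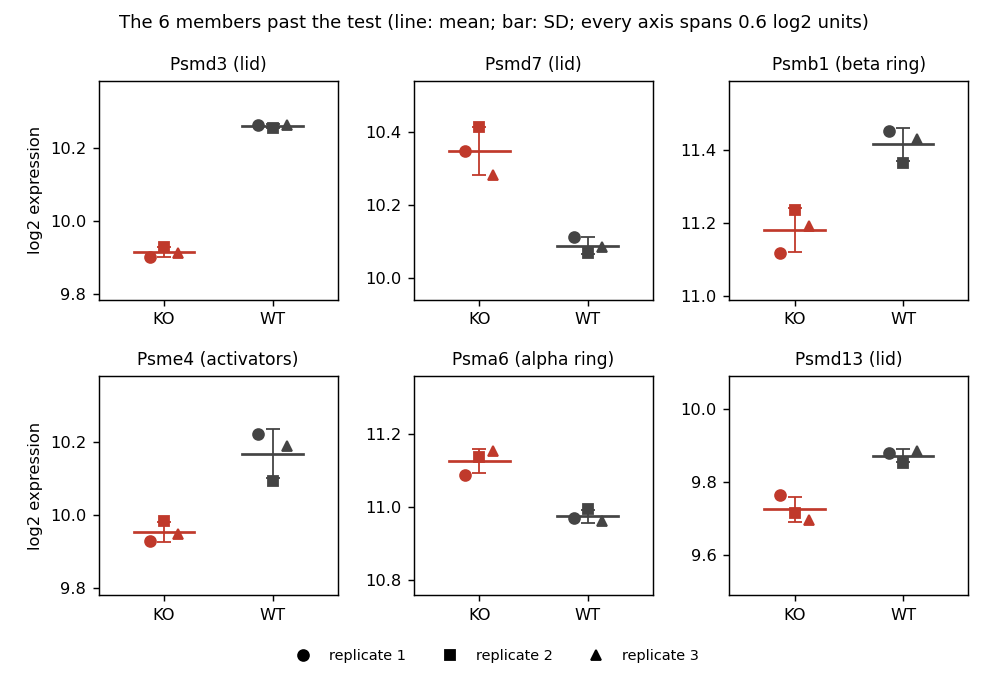
Log2 expression (y axes, each spanning 0.6 units) of the 6 members past the test on the 3 KO and 3 WT arrays; symbols mark replicates, lines are means and bars are SD. No group overlaps the other in any panel, and the gap between the genotypes is widest for Psmd3, which was near 9.91 in KO and 10.26 in WT.

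The chaperones that assemble the base did not pass. Psmd9 was at 8.47, 8.38 and 8.41 in KO, against 8.57, 8.49 and 8.55 in WT, without overlap, and differed by -0.12 (adjusted p = 0.153); it passed with array weights (0.0277), and over all alternatives the adjusted p ran between 0.0277 and 0.380. Psmd10, also known as gankyrin, had a difference of -0.08 and Psmd5 one of -0.02 (adjusted p = 0.384 and 0.853).

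Among the activators, which open the core in place of the cap, 1 of 4 passed (25%, against 7.31% of all genes). Psme4, the ATP-independent activator PA200 with a known part in histone degradation, was at 9.93, 9.98 and 9.95 in KO, against 10.22, 10.09 and 10.19 in WT. The groups did not overlap, and Psme4 fell by 0.21 (SE 0.04, limma adjusted p = 0.0337). The call held without WT replicate 2 alone and was lost in the fits without each other array (adjusted p = 0.0748 without KO replicate 2 to 0.148 without WT replicate 3). Psme1 and Psme2, the interferon-inducible subunits of the PA28 activator, differed by -0.04 (interval -0.15 to 0.07) and -0.000167 (interval -0.08 to 0.08). Psme3, its nuclear relative, differed by -0.00197, with 5 of 6 arrays tied at 10.38. Psme2 has a near-identical copy, Psme2b, and a second probe set that reads both genes differed by -0.03.

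Core and cap had like medians. The median difference was -0.06 for the 16 core genes (11 of them lower in KO) and -0.06 for the 17 cap genes (14 lower). Array by array, the mean level of the 16 core genes was 10.17, 10.17 and 10.20 in KO and 10.23, 10.24 and 10.23 in WT, and that of the 17 cap genes 10.08, 10.11 and 10.11 in KO and 10.18, 10.14 and 10.16 in WT. The KO means lay below the WT means on every array for both. The mean of the 2112 genes between 9.70 and 10.88 was 10.208, 10.198 and 10.216 in KO. In WT it was 10.259, 10.215 and 10.234, so only KO replicate 3 and WT replicate 2 overlapped. The size of the core and cap median differences depended on how the arrays were scaled. After quantile normalization again the medians were -0.04 for the core and -0.02 for the cap, and after cyclic loess -0.03 and -0.02. The median of the 2112 genes between 9.70 and 10.88 moved alongside, to -0.000950 after quantile normalization and 0.00144 after cyclic loess. Of the 38 members above background, 32 were lower in KO in the deposited scaling and 24 after either other scaling.

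**Figure D3:**
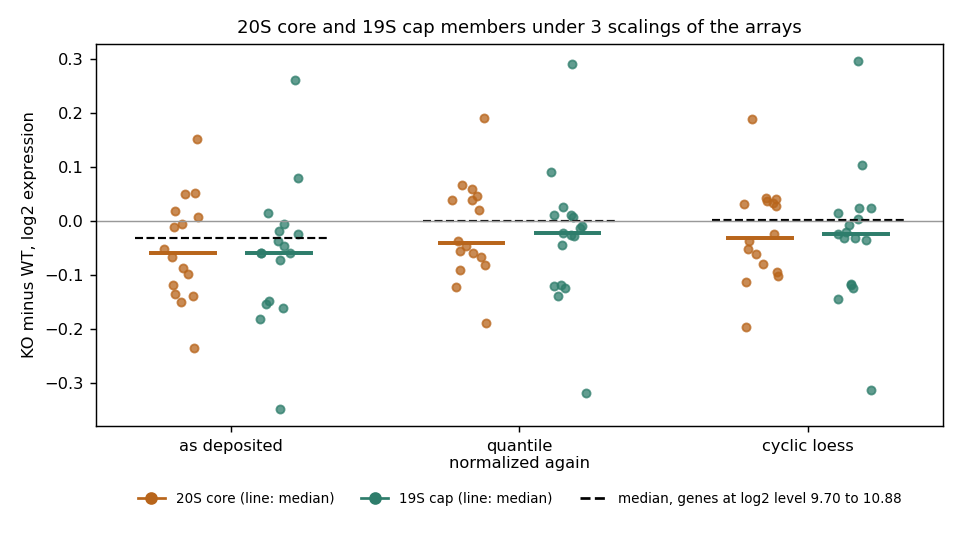
KO minus WT on the log2 scale (y axis) for the 16 core and 17 cap genes under 3 scalings of the arrays (x axis); points are genes, coloured lines are medians and dashed lines are the median of the 2112 genes with a mean log2 level between 9.70 and 10.88, a range that holds 4 of the core genes and 9 of the cap genes, while 7 core genes are brighter. Core and cap medians lie below the dashed line under each scaling, and all 3 move up together from the deposited scaling (core -0.06, cap -0.06) to cyclic loess (core -0.03, cap -0.02).

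The promoters of the members were examined for what they share. RefSeq (GRCm38.p6) gave 36 start regions of 300 bases, from 250 before to 50 after the start, for 33 of the 40 members. Psma8, Psmb1, Psmb2, Psmb7, Psmc3, Psmd3 and Psmd7 had no entry. Both strands were searched for 6 motifs. The ETS core CCGGAAG, read by ETS factors at many housekeeping genes, was in 13 of the 36 regions (36.1%, against 8.86% of all 32851 regions). The GC box GGGCGG was in 22 (61.1%, against 35.7%). The antioxidant response element TGACNNNGC, through which NRF1 and NRF2 act, was in 6 (16.7%, against 12.4%), CCAAT in 13 (36.1%, against 37.4%), TATAAA in 3 (8.33%, against 13.6%) and the cAMP response element TGACGTCA in 0 (against 1.79%). Matches describe the letters only.

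The 6 matches to the antioxidant response element are shown with up to 10 bases on either side, since this is the element tied to NRF1, with the match in capitals (GRCm38.p6, each read on its gene's strand). They belong to catalytic, ATPase, lid, chaperone and activator genes, and of these 6 genes only Psme4 passed the test, as a lower gene.
Psmb5, chr14:54618024-54618052, minus: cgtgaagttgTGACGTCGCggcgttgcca
Psmb6, chr11:70525338-70525366, plus: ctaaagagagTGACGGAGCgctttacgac
Psmc6, chr14:45329587-45329615, plus: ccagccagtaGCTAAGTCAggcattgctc
Psmd12, chr11:107479278-107479299, plus: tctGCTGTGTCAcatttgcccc
Psmd9, chr5:123228149-123228177, plus: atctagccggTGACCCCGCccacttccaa
Psme4, chr11:30771758-30771786, plus: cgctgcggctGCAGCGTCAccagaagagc

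Of the 6 called members, 3 had an entry, and their start regions are shown to set the higher Psma6 beside the lower Psmd13 and Psme4, with all motif matches in capitals (plus strand of GRCm38.p6). For Psma6 the downstream of its 2 annotated starts is given, and the other, at chr12:55383972-55384271, holds 2 CCAAT boxes and no ETS core. All 3 regions shown hold the ETS core, which Psma6 has 3 times at this start and Psmd13 once. Psme4 has it once, overlapping a GC box, and also holds the antioxidant response element shown above.
Psma6, chr12:55398575-55398874: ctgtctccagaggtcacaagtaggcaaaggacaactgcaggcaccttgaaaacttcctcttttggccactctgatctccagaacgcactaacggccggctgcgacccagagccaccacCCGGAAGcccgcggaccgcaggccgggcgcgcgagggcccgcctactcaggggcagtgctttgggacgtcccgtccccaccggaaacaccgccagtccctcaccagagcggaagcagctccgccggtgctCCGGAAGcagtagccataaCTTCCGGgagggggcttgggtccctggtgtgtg
Psmd13, chr7:140882144-140882443: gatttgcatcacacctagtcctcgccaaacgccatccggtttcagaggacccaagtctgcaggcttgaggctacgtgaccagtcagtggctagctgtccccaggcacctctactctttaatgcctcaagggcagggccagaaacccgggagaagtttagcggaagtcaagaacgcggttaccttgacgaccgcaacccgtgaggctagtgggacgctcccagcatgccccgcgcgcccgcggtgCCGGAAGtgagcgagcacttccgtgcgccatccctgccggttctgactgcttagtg
Psme4, chr11:30771525-30771824: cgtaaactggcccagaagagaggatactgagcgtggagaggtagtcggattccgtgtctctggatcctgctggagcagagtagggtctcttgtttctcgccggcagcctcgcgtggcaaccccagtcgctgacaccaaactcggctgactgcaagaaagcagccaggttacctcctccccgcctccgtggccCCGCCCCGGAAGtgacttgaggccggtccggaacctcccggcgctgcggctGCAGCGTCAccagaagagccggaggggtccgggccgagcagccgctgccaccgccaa

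Genes around the proteasome were read from 5 further lists. Of the cap proteins outside the Psm names, 3 of 4 listed were measured and 1 passed. That is 33.3% of the 3, against 7.31% of all genes and 15.7% of the 6741 genes in the members' level range. Sem1, a small lid subunit that in yeast binds the counterpart of Psmd3, was at 9.37, 9.37 and 9.45 in KO, against 9.68, 9.61 and 9.63 in WT. The groups did not overlap, and Sem1 fell by 0.24 (SE 0.04, limma adjusted p = 0.0159). The call held without KO replicate 3 or WT replicate 2 and was lost without KO replicate 1 (adjusted p = 0.0564), KO replicate 2 (0.0565), WT replicate 1 (0.0637) or WT replicate 3 (0.0852). Usp14 and Uchl5, deubiquitinases that bind the cap, were named after their values were seen and differed by -0.15 and -0.12 (adjusted p = 0.254 and 0.295).

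The 3 immunoproteasome genes, whose products replace the catalytic subunits of the core after interferon, had positive differences, and 1 passed. That is 33.3% of them, against 7.31% of all genes and 10.7% of the genes above background. Psmb8, the replacement for Psmb5, was at 8.45, 8.29 and 8.20 in KO, against 7.92 on each WT array, and rose by 0.39 (SE 0.06, limma adjusted p = 0.0148). The 3 equal WT values are a tie. The call held without KO replicate 1 or 3 and was lost without the other arrays (adjusted p = 0.0526 without WT replicate 2 to 0.0852 without WT replicate 3). Psmb9, the replacement for Psmb6, had a difference of 0.12 and Psmb10 one of 0.02 (adjusted p = 0.0956 and 0.863). The difference between Psmb8 and Psmb5 was not itself tested.

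Genes of NRF1 and NRF2 control differed by a median size of 0.149. The list holds the genes of both factors and of proteins around them, such as Keap1 and Ngly1. The median size was 0.0623 for the members and 0.0790 for the 6741 genes in the level range of the members above background. Of the 8 measured genes of NRF1 and NRF2 control (9 listed), 3 rose and none fell by limma (37.5%, against 7.31% of all genes called and 15.7% of the 6741). An unadjusted p under 0.05 was found in 6 (75%, against 20.7% of all genes and 39.5% of the 6741). The 8 genes had mean levels of 7.74 to 11.88, and the 6741 genes of 8.48 to 12.66. Maff, a small MAF partner of these factors, was at 9.33, 9.30 and 9.16 in KO, against 8.74, 8.85 and 8.73 in WT. Maff rose by 0.49 (SE 0.06, adjusted p = 0.00707). Leaving out WT replicate 3 ended this call (0.0541). The other small MAF genes listed, Mafg and Mafk, were named after their values were seen. They differed in opposite directions, by 0.31 and -0.11, without overlap, and did not pass (adjusted p = 0.0602 and 0.0944). Nfe2l2, which encodes NRF2, rose by 0.21 (adjusted p = 0.0228), held without KO replicate 1 alone and was lost without each other array (adjusted p = 0.0592 without WT replicate 1 to 0.115 without WT replicate 3). Bach1, a repressor of NRF2 targets, rose by 0.18 (adjusted p = 0.0422), held without KO replicate 2 alone and was otherwise lost (adjusted p = 0.0896 without WT replicate 2 to 0.174 without WT replicate 3). Nfe2l1, which encodes NRF1 and was named after its values were seen, was at 11.85, 11.77 and 11.85 in KO, against 11.96, 11.94 and 11.94 in WT. KO lay below WT on every array, and the difference of -0.12 did not pass (interval -0.21 to -0.04, adjusted p = 0.103).

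Of 9 measured genes of ubiquitin supply and delivery (15 listed), 1 fell and none rose by limma. That is 11.1%, against 7.31% of all genes called and 19.4% of the 2112 genes between 9.70 and 10.88. An unadjusted p under 0.05 was found in 4 (44.4%, against 20.7% of all genes and 44% of the 2112 genes). Vcp, the ATPase that extracts ubiquitinated proteins for the proteasome, was at 10.30, 10.27 and 10.32 in KO, against 10.45, 10.44 and 10.43 in WT, and fell by 0.14 (SE 0.03, adjusted p = 0.0439). The call was lost without any 1 array (adjusted p = 0.0796 without KO replicate 3 to 0.151 without WT replicate 3), and after quantile normalization again or cyclic loess (0.0984 and 0.107). None of the 8 genes of assembly and inhibition passed by limma and 0 had an unadjusted p under 0.05. The lowest p there belonged to Psmg1, an assembly chaperone of the alpha ring, which differed by -0.12 (adjusted p = 0.252).

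**Figure D4:**
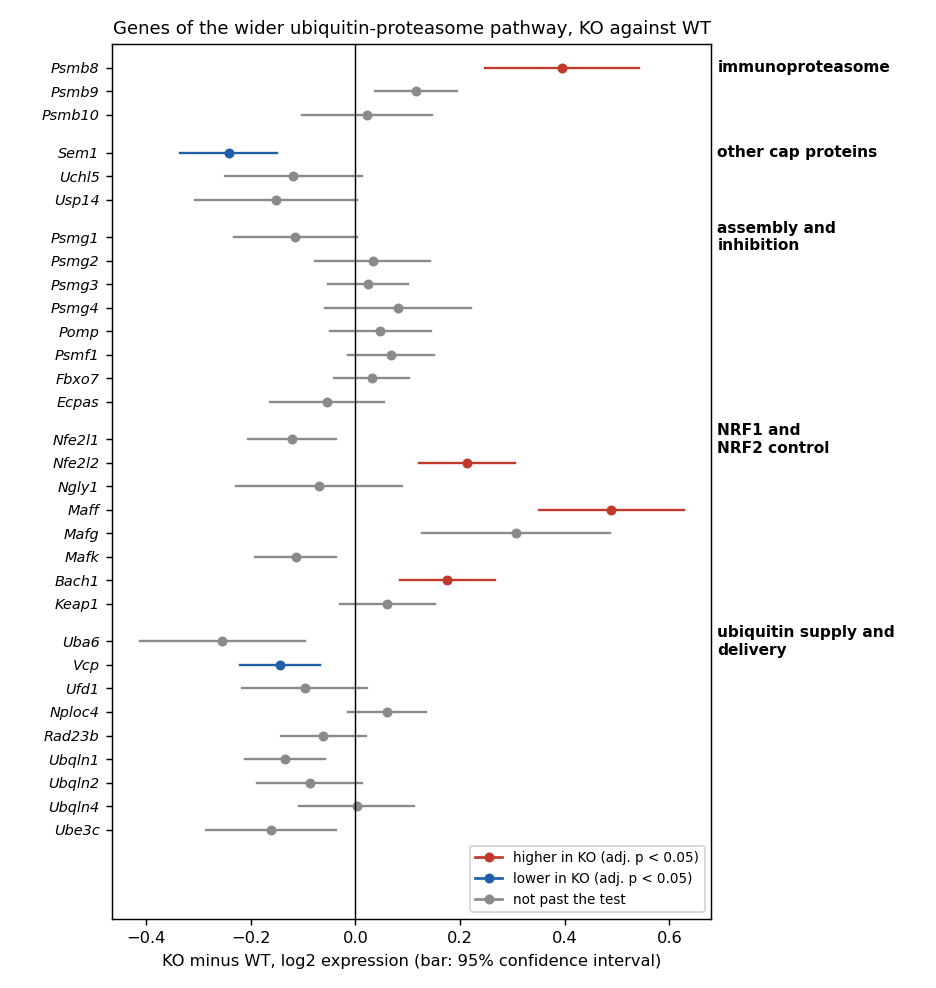
KO minus WT on the log2 scale (x axis) for the measured genes of the 5 lists around the proteasome (y axis); points are differences of the means of 3 arrays, bars are 95% confidence intervals from limma, and colour marks the test. Maff (0.49) and Psmb8 (0.39) lie farthest right, and Sem1 (-0.24) and Vcp (-0.14) are the lower genes past the test.

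Cell type markers bear on these bulk values, in which fewer cells of a type and less RNA per cell cannot be told apart. The shares of markers called stand beside 7.31% of all genes and 10.7% of the genes above background. Of 9 measured marrow stroma markers 8 lay above background, and 2 rose and 2 fell (44.4% called). Their summed log2 level was 77.75 to 78.06 in KO and 77.77 to 78.1 in WT. Of 7 adipocyte markers 2 fell (Fabp4 and Lpl, 28.6%) and the sum was 51.71 to 51.74 in KO and 52.47 to 52.71 in WT. Their part in the proteasome values was not tested, and Adipoq was below background in both genotypes. Of 8 macrophage markers only Cd68 was above background, with sums of 52.41 to 52.76 in KO and 52.31 to 52.94 in WT, and Cd68 fell (12.5% of the 8). Of 6 osteoclast markers 4 lay above background and 2 rose (Ctsk and Mmp9, 33.3%), with sums of 46.75 to 47.21 in KO and 46.54 to 46.95 in WT. Acp5 and Dcstamp differed by -0.07 each, Ocstamp by 0.02 and Oscar by 0.00238, and none of these passed by limma. Dcstamp and Oscar were below background. Of 6 endothelial markers 1 fell (16.7%), with sums of 38.85 to 39.53 in KO and 39.34 to 39.80 in WT. No marker of B cells, T and NK cells, neutrophils or erythroid cells passed by limma. An unadjusted p under 0.05 was found in 2 of 6 neutrophil markers, against 20.7% of all genes. No B cell, T and NK cell or erythroid marker had one.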

How the data were processed

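The deposited table holds log2 expression values per probe set, made by the authors with RMA (robust multi-array average); Partek and Affymetrix Expression Console are also named, all without versions, per the submitters' processing notes. RMA summarises probes by median polish, which can give arrays equal values, and sets the arrays to a common scale, so changes are relative to other genes. Each sample was 1 array from 6 µg of total RNA, and array medians lay between 7.19 and 7.23. Arrays give no read depth, and their number limits the precision.

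Of 35556 probe sets, 21789 had 1 symbol in the platform annotation, 1621 several and 12146 none. Gene identifiers gave current symbols (21698 found in the GRCm38.p6 table), and each of 19938 genes was represented by its brightest 1-symbol probe set. KO and WT were compared with limma 3.58.1 in R 4.3.3 (lmFit and eBayes, no covariates, two-sided), with Benjamini-Hochberg adjustment over all genes and a threshold of 0.05. The script was tested on simulated data. Differences are KO minus WT.

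The members, the lists and the rule for named genes (every member; of the 5 further lists, the called genes and the lowest p) were chosen with earlier results of these data known. No list was tested as a whole. Alternatives were quantile normalization again, cyclic loess, leaving out dim genes, averaging probe sets, an intensity trend, array weights, the replicate number as a block, and leaving out each array.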

Additional observations from a re-analysis of the deposited data

How the results depend on the processing

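Each of the 6 called members kept its direction under all 13 alternatives. Of these, only quantile normalization again and cyclic loess could have turned a sign. The other fits keep the deposited values of these members, whose groups did not overlap. Of the 34 uncalled members, 2 (Psmb3 and Psmd9) passed under some alternative, and 14 changed sign at least once, none past the threshold and none with a difference above 0.0516 in size in the fit as reported. The count of called members was 6, and 1 to 3 without 1 array: 1 without KO replicate 1, WT replicate 1 or WT replicate 3, 2 without KO replicate 3, and 3 without KO replicate 2 or WT replicate 2. Over all genes the count of 1457 became 189 to 932 without 1 array, 2192 with dim genes left out, 2196 with an intensity trend and 3418 with array weights, where WT replicate 3 weighed 7.41 and each other array between 0.524 and 1.19. With the replicate number as a block it was 52, and 0 members were called by limma. With the block 10 members had an unadjusted p under 0.05, and the share of all genes in that fit was not worked out. Without the block 13 members had one (32.5%, against 20.7% of all genes). Same-numbered arrays did not deviate together over all genes (correlations of -0.299, -0.262 and -0.0151). The labels do not say whether equal numbers mark paired cultures, and these correlations cannot decide it. The core median of -0.0588 was -0.0413 after quantile normalization again, -0.0308 after cyclic loess, -0.0471 with array weights, -0.0767 with dim genes left out or probe sets averaged, and -0.0687 to -0.0407 without 1 array. The cap median of -0.0586 was -0.0229 after quantile normalization and -0.0242 after cyclic loess. The activator median of -0.0222 turned to 0.00177 and 0.00836 under those scalings, and was -0.0426 to -0.0145 without 1 array. The split of all calls was 666 higher and 791 lower, 862 and 639 after quantile normalization, and 859 and 667 after cyclic loess. The cause of these changes was not tested, beyond the smaller number of arrays or genes in the fits that leave some out.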

Other observations

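Of the 40 members, 5 had more than 1 probe set with their symbol alone. For Psma5 these did not give the same picture. The probe set used above differed by 0.02, while the other was at 9.02, 8.99 and 8.96 in KO, against 9.28, 9.18 and 9.18 in WT, without overlap, and differed by -0.23 (SE 0.04). In a limma fit over all 35556 probe sets the adjusted p was 0.879 for the first and 0.0617 for the second. Of the 6 called members only Psmd3 passed in that fit (adjusted p = 0.0187). The others had 0.0510 (Psmd7), 0.0711 (Psmb1), 0.0830 (Psme4), 0.0931 (Psma6) and 0.102 (Psmd13). The 3 probe sets of Psma3 differed by -0.14, -0.14 and -0.13. The other probe set of Psmb3 differed by -0.04 where the one used differed by -0.13, that of Psmc1 by -0.10 where the one used differed by -0.02, and that of Psmd2 by -0.02 against -0.06. Which stretch of a transcript, or which gene copy, each probe set reads was not examined.

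Of the 38 members above background, 15 had their lowest KO value in replicate 1 and their lowest WT value in replicate 2 (39.5%, against 15.8% of all genes and 27.2% of the 2112 genes with a mean level between 9.70 and 10.88). Ties were counted for the lower replicate number, as for Psma7 among the 15, whose WT replicates 2 and 3 were equal. Not all parts of the particle had this pattern: in the beta ring KO replicate 2 was lowest in 5 of 8 genes and WT replicate 3 in 4. In the lid KO replicate 3 was lowest in 5 of 8, while WT replicate 2 was lowest in 7 of 8. The 15 included Psma3, Psmc6 and Psmd14, whose SD over the KO arrays was 0.108, 0.102 and 0.102. This pattern was picked after the values were seen, and the labels give the replicate numbers no order and state no pairing. It is given as a description.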
